A study of Mus musculus with 47 samples.

Results

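The 10 genes described here encode proteins of the Z-disc, the plate that borders each sarcomere of striated muscle and anchors its thin filaments. They were chosen by symbol, as 10 of the 45706 genes in the deposited tables, and were Actn2, Actn3, Myoz1, Myoz2, Myoz3, Tcap, Ldb3, Pdlim3, Csrp3 and Myot. Polyadenylated RNA was sequenced in 47 libraries from C2C12, a mouse skeletal myoblast line that withdraws from the cell cycle and fuses into myotubes when serum is removed. In C2C12 iMyoD1, which keeps its endogenous Myod1, doxycycline (dox) switches on a Halo-tagged copy of MyoD1, the basic helix-loop-helix factor that starts the muscle program, and C2C12 iCdh23 and C2C12 iMcam carry dox-inducible Cdh23 (a cadherin) and Mcam (an adhesion molecule of the immunoglobulin family). Every line was compared with and without dox within itself, so that all controls carried the transgene too.

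There were 16 groups. The iMyoD1 line was sampled in growth medium after 24 h of dox or vehicle (called 0 h) and after 24, 48 and 120 h of serum starvation, with dox or vehicle given over the same time. At 120 h the culture was taken whole or after passage over a 40 µm strainer, the flow-through being enriched for mononucleated myoblasts and the retained part for myotubes. The iCdh23 and iMcam lines were sampled at 48 h. Each group held 3 biological replicates, except for the myoblast-enriched fraction with dox, which held 2. The inducible constructs were integrated by a transposase and selected with puromycin, and the transgenes were driven by a dox-responsive promoter. By the study's imaging, only some nuclei of a dox-treated iMyoD1 culture held the tagged MyoD1, so that a bulk dox effect averages over cells with and without it. The 24 libraries of the iMyoD1 line without fractionation lie in 2 of the 3 deposited tables, those of 0 and 24 h apart from those of 48 and 120 h, and only the later ones carry a batch label (RNAseq_v2). The change from 24 to 48 h and that batch therefore cannot be told apart.

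A library held 15066362 to 50950707 estimated read counts, with a median of 22837955. The induced genes gave an uneven check of the labels. Myod1 counts, which cannot tell the endogenous gene from a transgene, were 181 CPM (read counts scaled to the size of the library) without and 192 CPM with dox at 0 h and were lower with dox at the later times in whole culture: 139 and 117 CPM at 24 h and 388 and 304 CPM at 48 h, without overlap, and at 120 h they fell by 1.62 on the log2 scale (edgeR quasi-likelihood adjusted p = 1.32e-05). Cdh23 stood at 385 CPM without and 482 CPM with dox in the iCdh23 line (log2 fold change 0.32, adjusted p = 0.102), against 9.38 CPM in the iMyoD1 line at 48 h without dox. Mcam rose from 17.9 to 71.3 CPM in the iMcam line. In the iMyoD1 line Mcam was higher with dox as well, at 2.62 and 16.9 CPM at 24 h and 1.85 and 33.1 CPM in whole culture at 120 h. Each adhesion line also showed the other line's gene higher with dox: Mcam was at 6.22 and 48.7 CPM in iCdh23 and Cdh23 at 7.64 and 51.2 CPM in iMcam. In the 120 h fractions Myod1 was at 318 CPM without and 281 CPM with dox (myoblast-enriched) and at 287 and 282 CPM (myotube-enriched). In whole culture with dox it was at 90.6 CPM, below both fractions, which were deposited apart from it. Levels in whole culture and in the fractions may therefore not be directly comparable. Groups are used as labelled. The myotube-enriched cultures with dox were spread widely: their 12 myotube marker genes summed to 18440 CPM in replicate 1, 29637 CPM in replicate 2 and 6321 CPM in replicate 3. Since replicate 2 was far above the others for Actn2 and Myot, dox effects in that fraction are also given without it. Across the 48 h and whole 120 h groups, the summed CPM of 5 cardiac markers was 0.333 to 8.02, that of 3 adipocyte markers at most 0.208, and that of 4 endothelial and immune markers at most 1.66. In the 120 h fractions the cardiac markers reached 71.0 CPM and the endothelial and immune markers 4.40 CPM. In the 48 h and whole 120 h groups the 3 smooth muscle markers summed to 35.6 to 230 CPM and the 4 fibroblast markers to 569 to 9495 CPM, and in the fractions they reached 248 and 13703 CPM.

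In the Z-disc, alpha-actinin dimers cross-link the actin filaments of neighbouring sarcomeres, and most of the other proteins described here dock on alpha-actinin or on titin. Actn2 and Actn3 are the sarcomeric alpha-actinins, and Actn3 is known for its restriction to fast fibres in adult skeletal muscle. The myozenins (Myoz1, Myoz2 and Myoz3, also known as calsarcins) tether the phosphatase calcineurin to alpha-actinin. Tcap (telethonin) caps the end of titin, Ldb3 (Cypher or ZASP) and Pdlim3 (ALP) are PDZ and LIM domain proteins that bind alpha-actinin, Csrp3 (muscle LIM protein) is a LIM-only protein linked to mechanical sensing, and Myot (myotilin) binds actin and filamin.

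The genes lie on 8 chromosomes of the GRCm38 assembly (mm10). Actn2 (ENSMUSG00000052374) spans chr13:12269426-12340760 on the minus strand and Actn3 (ENSMUSG00000006457) chr19:4861216-4877909 on the minus strand. Of the myozenins, Myoz1 lies at chr14:20649107-20656540 and Myoz2 at chr3:123006206-123035015, both on the minus strand. Ldb3 lies at chr14:34526603-34588682 and Csrp3 at chr7:48830398-48848033, both on the minus strand, whereas Tcap lies at chr11:98383811-98384953 and Pdlim3 at chr8:45885461-45919548 on the plus strand. The positions of Myoz3 and Myot are not given here. No exon of these genes overlaps an exon of another gene in the annotation used.

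RefSeq promoter sequence (250 bases before to 50 after a start, build GRCm38.p6) was at hand for 5 of the 10 genes, in 7 windows. Since MyoD1 and other basic helix-loop-helix factors bind the E-box CANNTG, the 250 bases upstream of the start are shown 5′ to 3′ on the coding strand, E-boxes in capitals, for 3 genes whose response to dox differed at 120 h, as described further on:
Pdlim3, chr8:45885237-45885486, plus strand: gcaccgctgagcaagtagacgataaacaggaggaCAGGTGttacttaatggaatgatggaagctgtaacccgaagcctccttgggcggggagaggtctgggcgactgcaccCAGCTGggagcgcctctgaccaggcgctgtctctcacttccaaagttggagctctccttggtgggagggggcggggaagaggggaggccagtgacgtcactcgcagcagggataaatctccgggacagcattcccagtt
Myoz2, chr3:123034988-123035237, minus strand: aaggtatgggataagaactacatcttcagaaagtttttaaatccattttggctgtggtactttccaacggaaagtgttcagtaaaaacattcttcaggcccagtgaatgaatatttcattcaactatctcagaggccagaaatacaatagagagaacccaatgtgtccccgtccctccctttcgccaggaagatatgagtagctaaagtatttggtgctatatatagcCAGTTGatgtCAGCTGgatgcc
Actn2, chr13:12340733-12340982, minus strand: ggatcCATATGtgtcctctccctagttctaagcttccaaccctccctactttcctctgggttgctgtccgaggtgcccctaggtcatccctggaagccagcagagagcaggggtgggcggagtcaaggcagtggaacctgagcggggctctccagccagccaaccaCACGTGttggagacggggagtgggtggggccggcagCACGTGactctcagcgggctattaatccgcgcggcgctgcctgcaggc
Pdlim3 held E-boxes beginning 216 and 139 bases before the start, the nearer of them CAGCTG, and CATTCC (the core bound by TEAD factors) on either strand at 201 and 11 bases before it. Myoz2 held E-boxes beginning 22 and 12 bases before the start, the nearer again CAGCTG, and a MEF2 site beginning 33 bases before it, which overlaps neither E-box. Actn2 held 3 E-boxes, at 245, 84 and 48 bases before the start, and no CAGCTG. The windows of Csrp3, which was lower with dox at 120 h, held 4 and 5 E-boxes and no CAGCTG, and those of Ldb3, which was higher, held no E-box. Over both strands, CANNTG was found in 72.3% of all 32851 promoter windows of that length, CAGCTG (itself a CANNTG) in 16.3%, CATTCC in 14.7% and the MEF2 site in 0.557%.

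Proliferating and newly starved myoblasts held RNA of only 3 of the 10 genes above a few counts. At 0 h without dox, Actn3 was at 14.9, 15.4 and 18.8 CPM, Ldb3 at 15.1, 14 and 16.4 CPM, and Pdlim3 at 3.53, 2.55 and 3.46 CPM. Actn2, Myoz2 and Myot were at 0 in all 3 libraries, and Myoz1 was at 0.217 CPM or less in every library of the 0 and 24 h groups. Myoz3 stayed at 5 counts or fewer in each of the 47 libraries and was tested in no comparison. These levels are shown for every library in the plot of Z-disc gene levels.

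**Figure D1:**
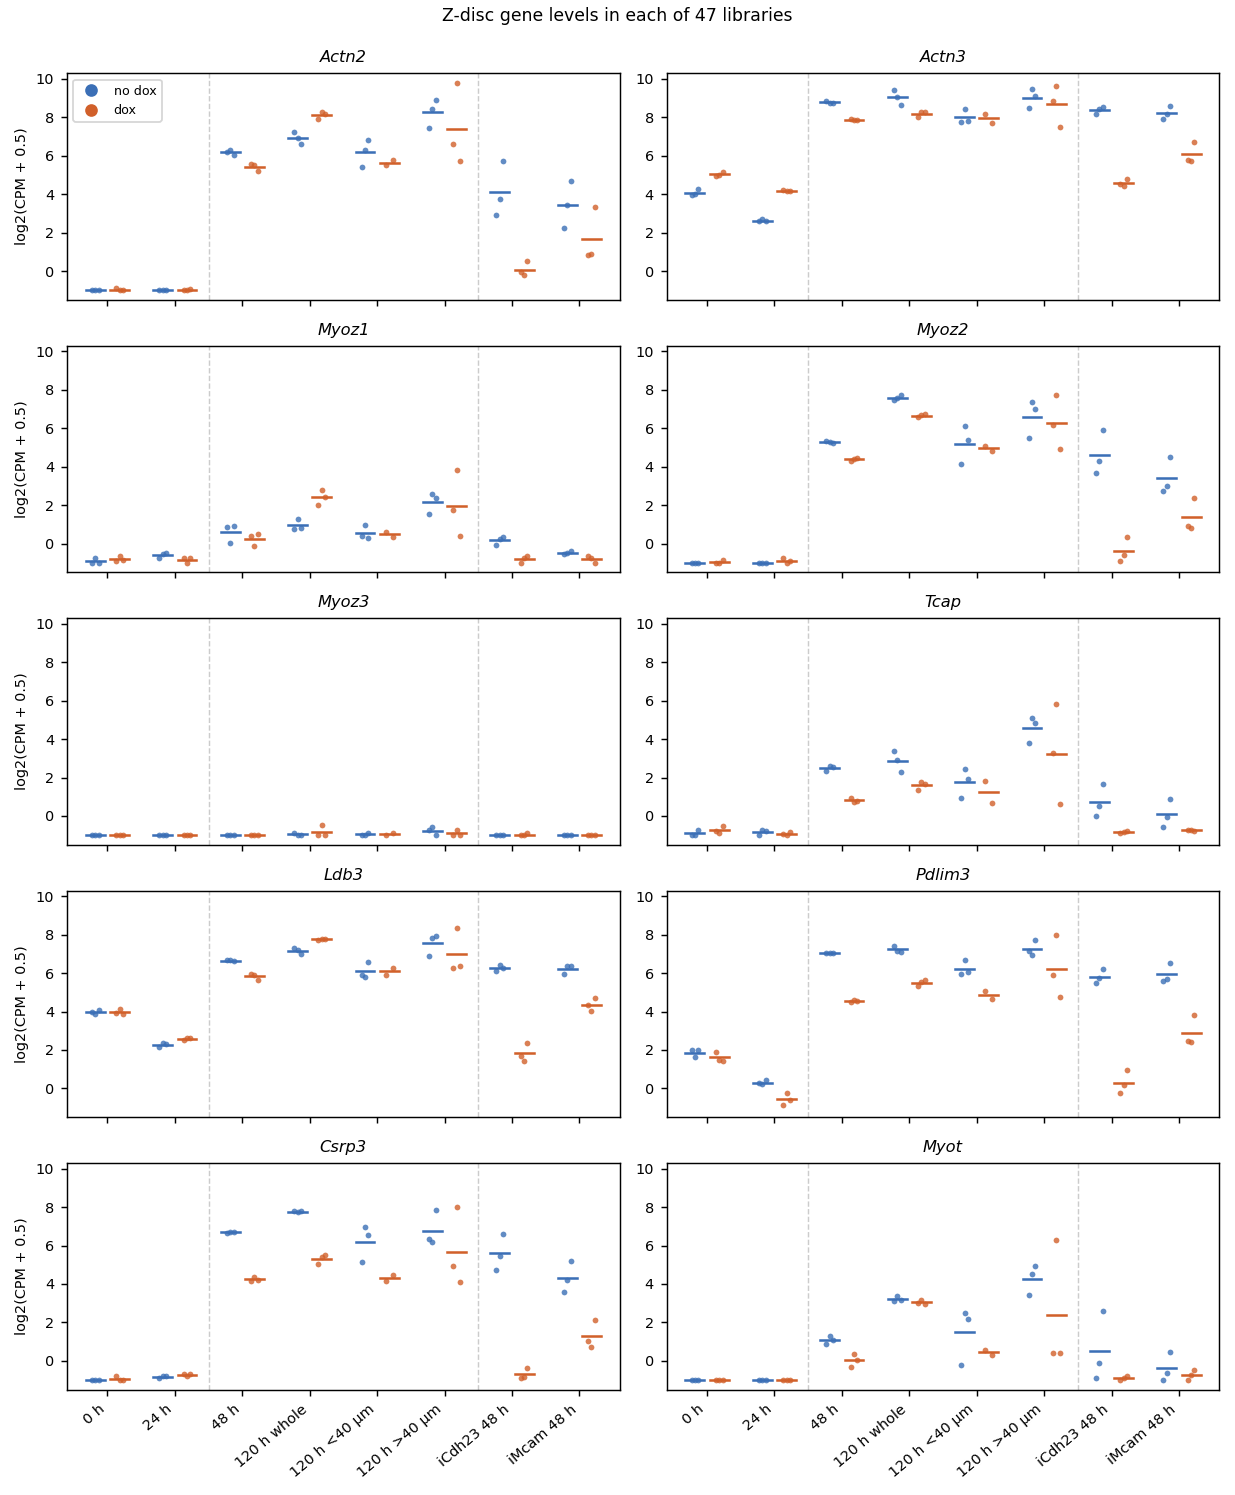
Level of each Z-disc gene in 47 libraries, as log2(CPM + 0.5), by line, time and fraction; unlabelled times are iMyoD1, points are libraries, horizontal bars are group means, blue is no dox and orange is dox. Dashed lines separate the 0 and 24 h libraries, the later iMyoD1 libraries and the adhesion lines; most genes appear between 24 and 48 h, and of the 9 tested genes Actn2, Myoz1 and Ldb3 lie higher with dox in whole culture at 120 h.

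Between 0 and 24 h of starvation without dox, the 3 detected genes fell: Actn3 by 1.51 ± 0.122 (log2 fold change ± SE, n = 3 and 3; edgeR adjusted p = 6.48e-08), Ldb3 by 1.78 ± 0.119 and Pdlim3 by 2.09 ± 0.259. A gene is called here when its Benjamini-Hochberg adjusted p is under 0.05 and its change is over 2-fold, and 16.6% of all genes tested were called lower in that step. Levels at 24 h were as low as 5.56, 6.04 and 5.49 CPM of Actn3 and 0.706, 0.663 and 0.831 CPM of Pdlim3. In the same step cycling myoblast markers went from 2809–2837 to 843–891 CPM, smooth muscle markers from 148–160 to 64.8–72.7 CPM and myotube markers from 2.55–3.93 to 17.0–18.2 CPM, and their part in the result was not tested. With dox, Ldb3 (fell by 1.44) and Pdlim3 (fell by 3.83) were again called, whereas Actn3 fell by 0.85, under 2-fold, and 11.6% of all genes were called lower.

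From 24 to 48 h, all 9 genes that could be tested rose without dox, against 19.3% of all genes called higher. Actn3 went from 5.70 to 444 CPM (log2 fold change 6.33 ± 0.0766), Pdlim3 from 0.733 to 132 CPM (7.53 ± 0.0938), Csrp3 from 0.0625 to 103 CPM (10.60 ± 0.137) and Ldb3 from 4.37 to 100 CPM (4.57 ± 0.0775). Because Actn2, Myoz2 and Myot had no count at 24 h, their increase can only be bounded. Taking 3 counts over the group as the limit that 0 allows, Actn2 was at least 1907-fold higher, Myoz2 at least 1018-fold and Myot at least 43.2-fold. Csrp3, Tcap and Myoz1 held 5, 5 and 13 counts over the 24 h libraries without dox. These genes and the 3 without a count passed the low-count filter through the 48 h group alone. Their only possible call was therefore higher, and the direction was open for Actn3, Ldb3 and Pdlim3. With dox all 9 genes rose as well, against 17% of all genes, with the same limit for genes near the floor at 24 h. Without dox, myotube markers went from 17.0–18.2 CPM at 24 h to 14860–16242 CPM at 48 h, fibroblast markers from 1531–1619 to 7413–7980 CPM and cycling myoblast markers from 843–891 to 1412–1441 CPM, and their part in the result was not tested. In bulk cultures, more myotubes and more RNA per myotube cannot be told apart.

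By 120 h the members had parted. Without dox, Myoz2 (2.35 ± 0.101), Myot (2.47 ± 0.202) and Csrp3 (1.11 ± 0.075) were called higher than at 48 h, against 11.7% of all genes. Myoz2 was at 39.7, 39.1 and 37.7 CPM at 48 h and at 174, 192 and 212 CPM at 120 h, and these groups did not overlap. Actn2 rose by 0.79 ± 0.147, Ldb3 by 0.57 ± 0.0886 and Pdlim3 by 0.23 ± 0.0911, all under 2-fold. Actn3 (0.31, adjusted p = 0.104), Tcap (0.48, 0.139) and Myoz1 (0.47, 0.327) did not pass the test, their 48 and 120 h libraries overlapping. Over the same time without dox, cycling myoblast markers went from 1412–1441 to 327–370 CPM, fibroblast markers from 7413–7980 to 4225–6043 CPM and smooth muscle markers from 169–178 to 46.2–102 CPM, and their part in the result was not tested. In cultures kept in dox, 7 of 9 genes were called higher at 120 h than at 48 h, against 15.1% of all genes, with Myot (3.84 ± 0.295), Myoz1 (2.86 ± 0.357) and Actn2 (2.72 ± 0.125) changing most. In those cultures myotube markers went from 6121–6251 to 9741–11903 CPM, cycling myoblast markers from 575–615 to 583–650 CPM and fibroblast markers from 3583–4248 to 2663–2843 CPM, and their part in the result was not tested.

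Scaled for transcript length, the order of the genes changed over the same time. At 48 h without dox Actn3 was the most abundant of the 10, at 258 TPM (counts divided by transcript length and scaled to the same total in each library). In whole culture at 120 h without dox, Csrp3 led with 477 ± 13.9 TPM (SD, n = 3), followed by Actn3 (361 ± 92.4), Myoz2 (334 ± 32.2) and Pdlim3 (181 ± 22.1). With dox the highest levels were those of Actn3 (222 ± 26.3), Actn2 (206 ± 25.4), Myoz2 (197 ± 12.1) and Ldb3 (195 ± 12.9), which overlapped in range, and Csrp3 was at 98.9 ± 16.9 TPM. Tcap, Myot and Myoz1 stayed at 20.1 TPM or less in these 2 groups.

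Before and at the onset of starvation, Actn3 was higher with dox. At 0 h, Actn3 was 14.9, 15.4 and 18.8 CPM without dox and 30.8, 31.4 and 34.9 CPM with it. The groups did not overlap, and the increase was 0.99 ± 0.0944 (adjusted p = 2.64e-06), just under 2-fold, where 19.1% of all genes passed the adjusted p in that direction. Myotube markers summed to 2.55 to 3.93 CPM without and 11.3 to 13.1 CPM with dox at 0 h, and fibroblast markers to 1669 to 1779 and 1008 to 1082 CPM. At 24 h, Actn3 rose from 5.56, 6.04 and 5.49 to 17.8, 17.6 and 17.2 CPM (1.65 ± 0.0894, adjusted p = 1.92e-08), and 8.02% of all genes were called higher. Pdlim3 moved the opposite way, from 0.706, 0.663 and 0.831 to 0.0558, 0.336 and 0.168 CPM (fell by 2.01 ± 0.497, adjusted p = 0.00373; 5.13% of all genes were called lower). Its dox effect at 24 h lay 1.78 below that at 0 h on the log2 scale (SE 0.518, interaction adjusted p = 0.0131; 2.64% of all genes were called in that direction), whereas at 0 h it did not pass the test (−0.27, adjusted p = 0.40). Ldb3 did not pass at 0 h (0.03, adjusted p = 0.86) and rose by 0.36 ± 0.117 at 24 h, under 2-fold. At that time myotube markers summed to 17.0 to 18.2 CPM without and 19.5 to 22.2 CPM with dox, and fibroblast markers to 1531 to 1619 and 493 to 522 CPM. Their part in these results was not tested.

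In the iMyoD1 line at 48 h, 8 of the 9 tested Z-disc genes were lower with dox at adjusted p under 0.05, against 28.7% of all genes. Of these, 4 changed over 2-fold, against 8.46%: Pdlim3 fell by 2.52 ± 0.0641 (adjusted p = 8.24e-09), Csrp3 by 2.47 ± 0.0764 (1.07e-08), Tcap by 2.04 ± 0.197 (8.78e-06) and Myot by 1.60 ± 0.356 (0.00299). Actn2, Actn3, Myoz2 and Ldb3 fell by 0.76 to 0.94, under 2-fold. Myoz1, at 1.31, 0.536 and 1.39 CPM without and 0.814, 0.399 and 0.934 CPM with dox, did not pass the test (−0.66, 95% interval −1.51 to 0.19). The median over the 9 tested genes was −0.94 and that over all genes tested 0.01.

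The 2 strongest responses of the iMyoD1 line at 48 h were uniform across cultures. Pdlim3 stood at 133, 131 and 131 CPM without dox and at 22.1, 23.9 and 23.1 CPM with it. Csrp3 stood at 99.4, 106 and 105 CPM without dox and at 17.6, 20.3 and 18.3 CPM with it. For both genes the cultures with dox lay far below every control, with little spread within a group. Tcap was at 4.51, 5.62 and 5.39 CPM without dox and 1.41, 1.14 and 1.23 CPM with dox. Markers of other states moved with these genes: the summed CPM of 12 myotube markers fell from 14860–16242 to 6121–6251, that of 10 cycling myoblast markers from 1412–1441 to 575–615 and that of 4 fibroblast markers from 7413–7980 to 3583–4248. Their part in the result was not tested.

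**Figure D2:**
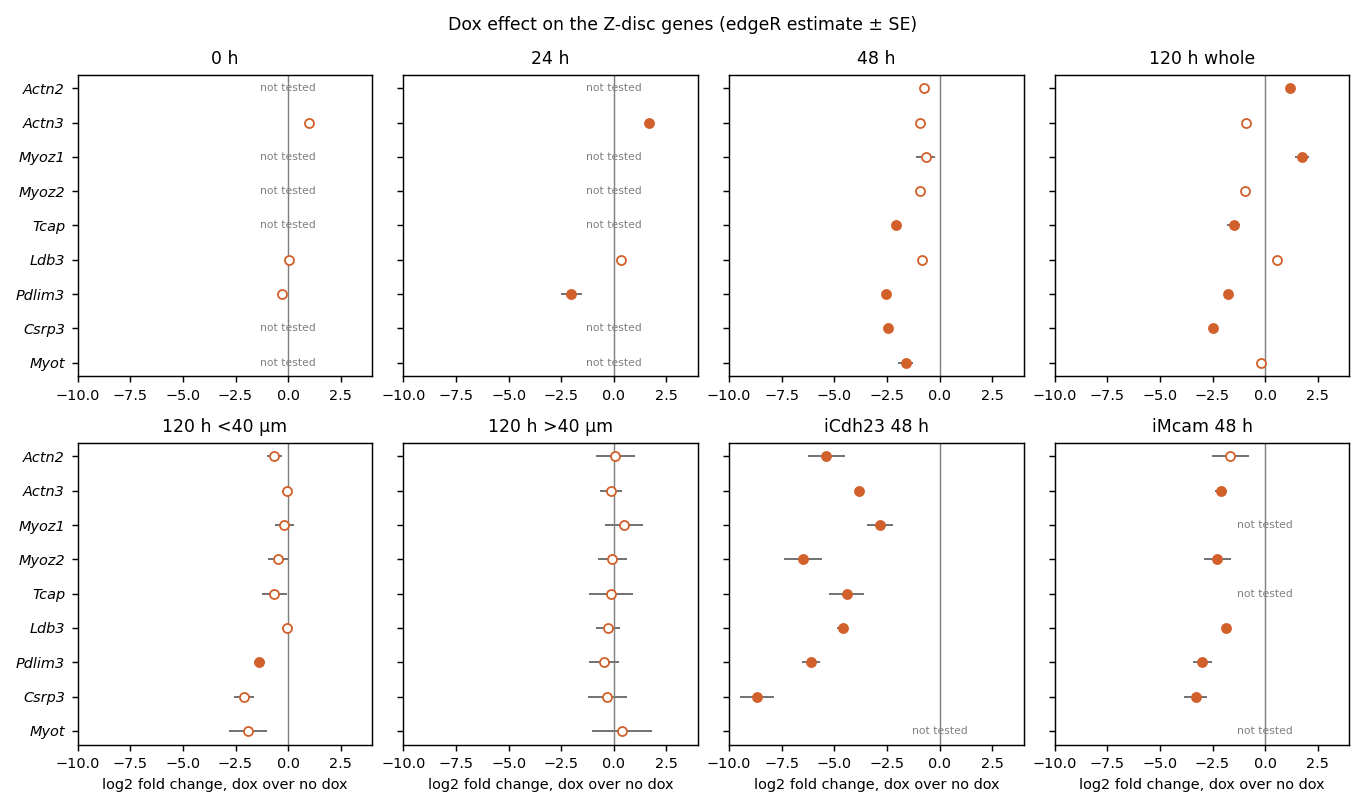
Log2 fold change with dox (horizontal axis, dox over no dox, edgeR estimate ± SE) of the Z-disc genes tested in each of 8 comparisons, 3 to 9 genes in each; the first 6 panels are iMyoD1 and filled points passed adjusted p under 0.05 and 2-fold. All tested genes lie left of zero at 48 h in every line, Actn2, Myoz1 and Ldb3 lie right of it in whole culture at 120 h, and the widest error bars are in the >40 µm fraction.

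After 120 h in whole culture the members no longer moved together. Actn2 rose from 151, 122 and 97.1 CPM without dox to 245, 313 and 288 CPM with dox (1.19 ± 0.156, adjusted p = 0.000307). Myoz1 rose from 1.22, 1.92 and 1.22 to 3.46, 6.34 and 4.93 CPM (1.74 ± 0.329, adjusted p = 0.00235). Ldb3 rose from 157, 147 and 129 to 211, 216 and 221 CPM (0.57 ± 0.0908, adjusted p = 0.000902), which is under 2-fold. In none of these 3 genes did the dox and no dox cultures overlap.

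Over the same 120 h, the remaining genes were lower or did not pass the test. Csrp3 went from 220, 212 and 220 to 32.3, 41.6 and 44.8 CPM (fell by 2.47 ± 0.123, adjusted p = 1.19e-06). Pdlim3 went from 170, 143 and 138 to 39.4, 45.4 and 50.4 CPM (fell by 1.75 ± 0.122, adjusted p = 6.61e-06). Tcap fell by 1.49 ± 0.313, Myoz2 by 0.94 ± 0.095 and Actn3 by 0.89 ± 0.17. Myot, at 8.17, 9.88 and 8.55 CPM without and 7.61, 8.43 and 7.15 CPM with dox, did not pass (−0.21, adjusted p = 0.342). In all, 2 of 9 genes were called higher (7.32% of all genes) and 3 lower (8.8%).

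The change of the dox effect between 48 and 120 h was tested as an interaction. It was called for 4 of 9 genes, all upward, against 7.18% of all genes: Myoz1 (2.39 ± 0.58, adjusted p = 0.00609), Actn2 (1.95 ± 0.206, 8.72e-06), Ldb3 (1.39 ± 0.128, 2.29e-06) and Myot (1.39 ± 0.361, 0.00912). For Pdlim3 it was 0.77 ± 0.14, under 2-fold. For Csrp3 the effect at 120 h differed from that at 48 h by 0.00, with a 95% interval of −0.27 to 0.27, for Myoz2 by 0.00 (−0.21 to 0.21) and for Actn3 by 0.03 (−0.36 to 0.41). For these 3 genes no change of the dox effect was detected within those intervals, while Actn2 and Ldb3 passed the test at both times with opposite signs.

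**Figure D3:**
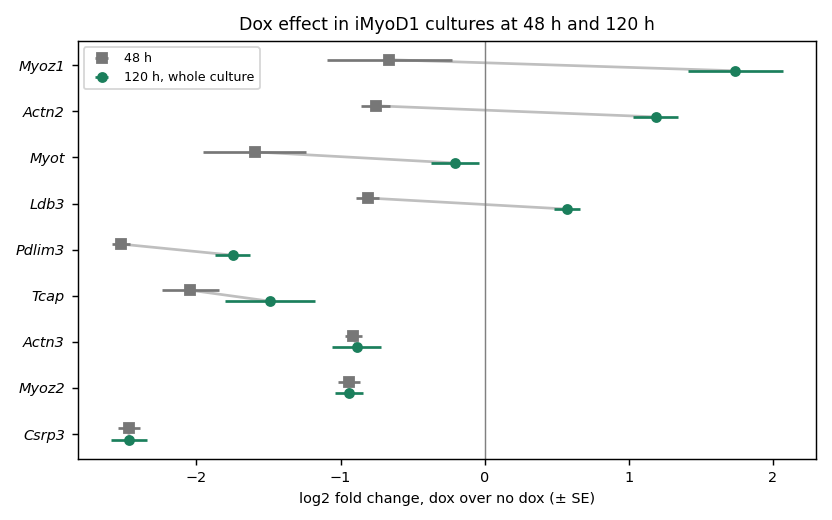
Log2 fold change with dox (± SE) in iMyoD1 cultures at 48 h (grey squares) and in whole culture at 120 h (green circles), with genes ordered by the difference. Csrp3, Myoz2 and Actn3 have nearly the same estimate at both times, and the estimates of Myoz1, Actn2 and Ldb3 lie on opposite sides of zero, that of Myoz1 at 48 h not having passed the test.

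The myotube marker sum is given beside these values because it moved in the same cultures: it was 12898 to 18420 CPM without and 9741 to 11903 CPM with dox at 120 h. Per 1000 CPM of those markers, Actn2 amounted to 7.74 CPM without and 25.4 CPM with dox at 120 h, compared with 4.69 and 6.99 CPM at 48 h. For Actn3 the same ratio was 33.6 and 26.3 CPM at 120 h, and 28.6 and 38.3 CPM at 48 h. The other ratios without and with dox at 120 h were 0.0931 and 0.437 CPM for Myoz1, 9.21 and 19.6 for Ldb3, 0.572 and 0.701 for Myot, 12.6 and 9.12 for Myoz2, 0.434 and 0.227 for Tcap and 9.60 and 4.07 for Pdlim3. For Csrp3 it was 3.31 to 3.85 CPM in the libraries with dox, below all of those without, of which the highest was 17.1 CPM. Cycling myoblast markers summed to 327 to 370 CPM without and 583 to 650 CPM with dox at 120 h, and fibroblast markers to 4225 to 6043 and 2663 to 2843 CPM. Whether these shifts bear on the Z-disc genes was not tested.

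The 2 sarcomeric alpha-actinins therefore changed their ratio. Counted per length, Actn2 made up 13.2% ± 1.19 (SD, n = 3) of the Actn2 and Actn3 total at 48 h without dox and 13.2% ± 2.09 with it. In whole culture at 120 h its share was 18.1% ± 0.671 without dox (17.6 to 18.8%) and 48.2% ± 0.681 with dox (47.5 to 48.8%). These 2 groups were far apart compared with their spread, although an exact permutation test over 3 against 3 cannot go below p = 0.1. At 0 and 24 h nearly all sarcomeric alpha-actinin RNA was Actn3, and in the adhesion lines Actn2 stayed low, at 5.88% in iCdh23 and 3.65% in iMcam cultures without dox. In the myotube-enriched fraction it was 35.1% ± 6.57 without dox and 8.04, 50.2 and 20.6% with dox in replicates 1 to 3. In the myoblast-enriched fraction it was 15.5 to 32.8% without dox and at most 19.8% with dox, and these overlapped. Of all 4 alpha-actinins, the sarcomeric Actn3 made up 2.12% at 0 h and 39.4% at 48 h without dox, the remainder at 0 h being the cytoskeletal Actn1 and Actn4.

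**Figure D4:**
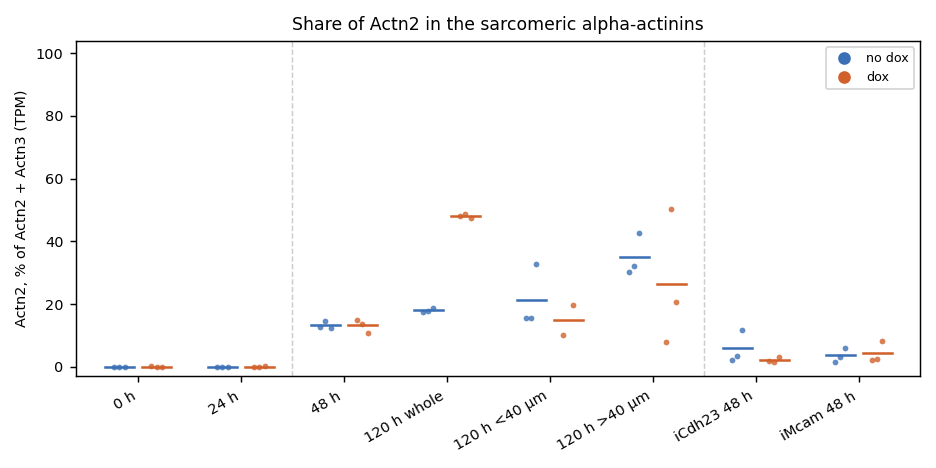
Actn2 as a percent of the summed TPM of Actn2 and Actn3 in each library, by line, time and fraction (blue no dox, orange dox, bars group means). The 3 whole cultures with dox at 120 h lie at 47.5 to 48.8%, above the 17.6 to 18.8% of their controls, while the groups overlap at 48 h.

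Among the myozenins, Myoz2 carried 94.7 to 99.3% of the family's TPM, as group means, from 48 h on, except in iCdh23 cultures with dox. There the mean of 83.2% is uncertain, since libraries ran from 64.5 to 100% and the smallest held 1 count of the family. The share of Myoz1 was 0.647% in whole culture at 120 h without dox and 4.04% with it, as Myoz1 rose and Myoz2 fell.

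Ldb3 also changed in the transcripts it was counted on. Its annotated coding transcripts contain either a long alternative exon of 359 bases (in Ldb3-201, Ldb3-202 and Ldb3-203) or a short one of 204 bases (in Ldb3-204 and Ldb3-205), the gene being known for cardiac and skeletal splice forms. The deposited tables split the reads of a gene over its transcripts by estimation, and 2 further annotated coding transcripts of Ldb3 are not among those analysed here. The split between Ldb3-204 and Ldb3-205 varied within and between groups, and why it did was not tested. Ldb3-204 held 64.6% ± 15.4 of the gene's counts in whole culture at 120 h without dox and 24% ± 2.99 in the myoblast-enriched fraction. The sums over each exon class are therefore compared, with the share of Ldb3-203 given beside them.

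Transcripts with the short exon held 15.3% ± 21.6 of Ldb3 counts at 0 h without dox and 21.3% ± 17.7 at 24 h, where libraries ranged widely and the smallest held 96 counts of the gene. At 48 h they held 80.3% ± 2.05 without and 82.9% ± 2.39 with dox. In whole culture at 120 h they held 86.5% ± 3.04 and 83.7% ± 1.66, so that the share changed little with dox while the level of the gene did. The level of the long exon class was 12.7 CPM at 0 h and 19.7 CPM at 48 h without dox, while the short exon class went from 2.46 to 80.4 CPM. With dox at 120 h the classes stood at 35.2 and 181 CPM.

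**Figure D5:**
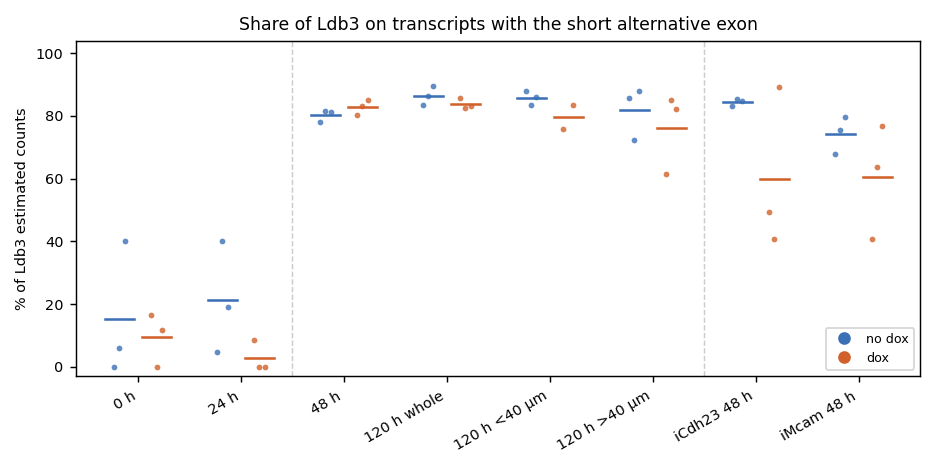
Percent of Ldb3 estimated counts on transcripts with the short alternative exon in each library, by line, time and fraction (blue no dox, orange dox, bars group means). Libraries at 0 and 24 h lie at 40.1% or less, those of the iMyoD1 line from 48 h at 61.4% or more, and the iCdh23 and iMcam cultures with dox spread from 40.8 to 89.3%.

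In the fractions of the 120 h cultures, the Z-disc genes leaned towards the myotube-enriched side. Without dox, Tcap was at 13.6, 33.3 and 27.8 CPM in the myotube-enriched and 1.42, 4.87 and 3.34 CPM in the myoblast-enriched fraction, and it was called (2.95 ± 0.478, adjusted p = 0.0465) where 0.57% of all genes were. Actn2 was at 173, 349 and 481 CPM against 41.9, 79.1 and 114 CPM (2.10 ± 0.447, adjusted p = 0.0868). All 3 myotube-enriched libraries lay above all 3 myoblast-enriched ones for 7 of the 9 genes, the exceptions being Myoz2 and Csrp3, and for 11.1% of all genes tested. The fractions of one replicate number deviated together, and with that number as a block 7 genes were called, where that fit called 2.3% of all genes higher: Tcap (3.02), Myot (3.00), Actn2 (2.10, adjusted p = 0.00327), Myoz1 (2.06), Ldb3 (1.49), Myoz2 (1.43) and Actn3 (1.03). Csrp3, at 79.2, 71.6 and 229 CPM against 34.8, 124 and 91.6 CPM, did not pass without the block (0.61, adjusted p = 0.615). The call of Tcap was lost on leaving out any of 5 of the 6 libraries, with adjusted p of 0.0786 to 0.213. The myotube marker sum was 15660 to 27371 CPM in the myotube-enriched and 6975 to 11343 CPM in the myoblast-enriched fraction. Myotube markers were thus present in both fractions, and which cells held them was not tested.

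In the myoblast-enriched fraction, Pdlim3 went from 60.7, 101 and 66.4 to 33.6 and 25.1 CPM (fell by 1.37 ± 0.259, adjusted p = 0.0355), against 1.82% of all genes called lower. That call was lost without myoblast-enriched replicate 3 of the controls or without either dox replicate (adjusted p = 0.110 to 0.167); in the latter fits the dox arm is 1 library, taken to vary like the controls. Actn2 was at 41.9, 79.1 and 114 CPM without and 45.7 and 53.6 CPM with dox in this fraction, overlapping, and did not pass (−0.66 ± 0.368, adjusted p = 0.342). Csrp3, from 34.8, 124 and 91.6 to 17.1 and 21.9 CPM, did not overlap but did not pass (−2.09 ± 0.488, adjusted p = 0.0572). It was called with the replicate number as a block, which here holds 2 pairs (−2.45, adjusted p = 0.000118), by DESeq2 (0.0177), without the low-count filter (4.96e-12) and without control replicate 1 or 2 (0.0112 and 0.0410). Actn3 and Ldb3 differed by −0.07 and −0.03, with 95% intervals of −0.56 to 0.42 and −0.52 to 0.45. Fibroblast markers in this fraction summed to 13025 to 13703 CPM without and 4699 to 5585 CPM with dox, and myotube markers to 6975 to 11343 and 6344 to 6354 CPM. Their part in these results was not tested.

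In the myotube-enriched fraction, edgeR called no gene of 14112 with dox (0% in either direction; 79 at an unadjusted p under 0.05, none of them a Z-disc member), and DESeq2 called no member. Actn2 was at 173, 349 and 481 CPM without dox and at 98.9, 897 and 52 CPM with it. Replicate 2 was the highest of all 47 libraries for Actn2, and the other dox cultures lay below every control. Myot showed the same split, at 10.1, 22.1 and 29.8 CPM without and 0.829, 79.1 and 0.846 CPM with dox. The dox effect on Actn2 was 0.08 with a 95% interval of −1.75 to 1.90, and without replicate 2 it was −2.09 ± 0.523. Without replicate 3, which had the lowest marker sum, it was 0.56 ± 0.811. Without replicate 2 the effect was −4.57 ± 0.599 for Myot, −2.39 ± 0.602 for Csrp3 and −2.24 ± 0.853 for Tcap, and without replicate 3 it was 0.93 ± 1.24, 0.17 ± 0.845 and 0.39 ± 0.693, none of them called. Between the fractions with dox, edgeR called no gene of 14291 (183 at an unadjusted p under 0.05, none a member), DESeq2 called no member, and no member was called without that library.

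Dox lowered Z-disc genes in both adhesion lines as well. In iCdh23 cultures all 8 tested genes were called lower, against 17% of all genes, with a median of −4.99 over those 8 and −0.00 over all genes tested. Csrp3 went from 25.7, 42.9 and 98 to 0.0416, 0.0646 and 0.285 CPM (fell by 8.67 ± 0.793, adjusted p = 7.01e-05). Myoz2 fell by 6.48 ± 0.907 and Actn2 fell by 5.38 ± 0.89. Pdlim3 fell by 6.10 ± 0.418. Ldb3 went from 67.7, 85.2 and 76.8 to 2.7, 2.17 and 4.64 CPM (fell by 4.60 ± 0.267). Actn3 fell by 3.83 ± 0.147 to 23, 21.2 and 26.8 CPM and remained the most abundant of the 10 per length. Myot was not tested there and had 138 counts without and 3 with dox over the 3 libraries, a ratio of 57.0 with a 95% Poisson interval of 19.5 to 277 that covers counting error only. The myotube marker sum in these cultures was 5788 to 10090 CPM without and 53.9 to 161 CPM with dox. The cycling myoblast markers went from 984–1258 to 126–166 CPM, the fibroblast markers from 5782–6359 to 569–687 CPM and the smooth muscle markers from 146–192 to 35.6–51.3 CPM. Their part in the result was not tested.

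In iMcam cultures 5 of 6 tested genes were called lower with dox, against 9.85% of all genes. Csrp3 fell by 3.30 ± 0.547 (adjusted p = 0.00246), Pdlim3 by 2.99 ± 0.452, Myoz2 by 2.26 ± 0.65, Actn3 by 2.08 ± 0.288 and Ldb3 by 1.85 ± 0.197. Actn2 was at 4.18, 10.2 and 25.5 CPM without and 1.28, 1.33 and 9.73 CPM with dox and did not pass (−1.66 ± 0.88, adjusted p = 0.154). Its groups overlapped through replicate 3, the highest of either group. Replicate numbers also paired these samples, and with the number as a block Actn2 was called (−1.87, adjusted p = 0.00302), which made 6 of 6 where that fit called 10.2% of all genes lower; without dox replicate 3 it was −3.33 (adjusted p = 0.0187). The call of Myoz2 was lost without dox replicate 1 or 2 (adjusted p = 0.0741 and 0.077). In the same cultures the myotube markers summed to 4203 to 10258 CPM without and 557 to 1709 CPM with dox, the cycling myoblast markers to 851 to 983 and 179 to 245 CPM, and the fibroblast markers to 7153 to 9495 and 3064 to 3882 CPM. Their part in the result was not tested.

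The difference between the lines' dox effects was tested directly. From iMcam to iCdh23 the effect was larger for Csrp3 (−5.33 ± 1.17, adjusted p = 0.0144), Pdlim3 (−3.08 ± 0.694, 0.0162), Ldb3 (−2.73 ± 0.345, 0.000819) and Actn3 (−1.72 ± 0.346, 0.00965), 4 of 7 tested genes against 5.47% of all genes called in that direction. Myoz2 (−4.18, adjusted p = 0.0557) and Actn2 (−3.68, 0.129) did not pass, and both passed with the replicate block (adjusted p = 1.39e-05 and 0.000626). Myoz2 also passed without the low-count filter (0.0142), by DESeq2 (0.0260) and without no-dox replicate 1 of iCdh23 (0.0340) or no-dox replicate 3 of iMcam (0.0234). Csrp3 lost its call without iCdh23 dox replicate 2 or iMcam dox replicate 3 (adjusted p = 0.0501 and 0.0502) and Pdlim3 without that iCdh23 library (0.0547). In the cultures with dox alone, 6 of 6 tested genes were lower in iCdh23 than in iMcam, against 8.18% of all genes, the smallest difference being that of Actn3 (−1.59 ± 0.238). For Pdlim3 it was −3.26 ± 0.549 and for Ldb3 −2.71 ± 0.276, and Csrp3 stood at 0.131 CPM in iCdh23 and 2.15 CPM in iMcam.

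Without dox, none of 7 tested genes was called between the 2 adhesion lines by edgeR (1 at an unadjusted p under 0.05) or by DESeq2, where 0.146% of all genes were called higher and 0.204% lower in iCdh23. Ldb3 was at 76.6 and 75.3 CPM, a log2 difference of 0.01 with a 95% interval of −0.27 to 0.30. For Csrp3 (1.34 ± 0.559) and Myoz2 (1.32 ± 0.687) the estimate was larger and less precise, and with the replicate block both were called higher in iCdh23 (1.29, adjusted p = 0.00134, and 1.25, 0.00298).

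Compared with the iMyoD1 line at 48 h, whose libraries were deposited in another table, the dox effect in iCdh23 was larger for 7 of 9 tested genes, against 12.1% of all genes. The differences ran from −6.18 ± 0.814 for Csrp3 and −5.51 ± 0.861 for Myoz2 to −2.36 ± 0.833 for Tcap. Tcap lost that call on leaving out any of 10 of the 12 libraries. In iMcam it was larger for 2 of 9, against 1.57%: Actn3 (−1.17 ± 0.306, adjusted p = 0.0405) and Ldb3 (−1.04 ± 0.219, 0.0163). The first of these lost its call without any of 10 libraries and the second without any of 4. Tcap, Myot and Myoz1 held only 36, 19 and 11 counts without and 6, 7 and 5 with dox over the iMcam libraries. They were tested because of their iMyoD1 counts, and so few iMcam counts left little room for a call. Pdlim3 and Csrp3 differed between iMcam and iMyoD1 by −0.47 (95% interval −1.35 to 0.40) and −0.84 (−1.88 to 0.21).

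Other Z-disc genes gave a background for these values. Of a list of 22, 11 of 20 tested were called lower with dox at 48 h (8.46% of all genes) and none higher, with a median of −1.09, the lowest being Ankrd23 (−2.16) and the highest Hspb1 (0.35). Titin (Ttn), the filament that spans the sarcomere from the Z-disc, fell by 1.67 and nebulin (Neb), which runs along the thin filament, by 1.57. At 120 h in whole culture 10 of 21 were called lower (8.8% of all genes) and none higher, with a median of −0.69. The lowest was Xirp2, a member of the Xin family of actin-binding repeat proteins (−3.87), and Ankrd1, a stretch-responsive ankyrin repeat protein, fell by 3.35, whereas Ttn (−0.58) changed under 2-fold and Neb (−0.22, adjusted p = 0.151) did not pass the test. The highest was the capping protein subunit Capzb (0.66, under 2-fold). With dox, 18 of 21 were called lower in iCdh23 (17% of all genes; median −3.69) and 14 of 20 in iMcam (9.85%; median −1.60). From 24 to 48 h without dox 15 of 20 rose (19.3%).

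Paralogues of the members give a second set of values. Some, such as the alpha-actinins Actn1 and Actn4, belong to the cytoskeleton, and others, such as Pdlim5 and Pdlim7, are also known from the Z-disc. Of 9 such paralogues, none was called with dox in iMyoD1 at 48 h, where 8.46% of all genes were called lower. None was called at 120 h in whole culture (7.32% of all genes higher, 8.8% lower) or in iMcam (9.85% lower). In iCdh23, 4 were called lower (17% of all genes). With 9 genes, an absence of calls is not far from these shares. Actn1 and Actn4, the cytoskeletal alpha-actinins, differed by 0.03 and 0.07 with dox at 48 h, and Csrp1 by 0.07, where Actn3 fell by 0.91 and Csrp3 by 2.47. Actn4 fell by 0.66 and Csrp1 rose by 0.70 at 120 h, both under 2-fold. Pdlim5 rose by 0.60 and Pdlim7 fell by 0.92 there, again under 2-fold. A further 6 genes belong to calcineurin signalling, the pathway whose phosphatase the myozenins bind. None was called with dox in iMyoD1 at 48 h, at 120 h in whole culture or in the adhesion lines. With 6 genes, this too is not far from the shares of all genes given above. Rcan1, a target and inhibitor of calcineurin, differed by 0.27 at 48 h and 0.20 at 120 h, and by 0.69 in iCdh23.

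Across the 16 group means of log2(CPM + 0.5), the members' patterns were alike but not equal. Groups share their line and depth of sequencing, so Pearson's r is given as a description over 16 points. Leaving myotube-enriched dox replicate 2 out of its group's mean, an alternative chosen after seeing the data, gave r = 0.986 for Actn2 and Myoz2 and 0.740 for Actn3 and Myoz1, and among the pairs named here lowered that of Myot and Rbfox1 most, to 0.891. The closest pair of members was Actn2 and Myoz2 (r = 0.985), and the least alike were Actn3 and Myoz1 (r = 0.734). Outside the list, the genes closest to Myoz2 were Myom3 (r = 0.996) and Mypn (0.994), to Actn2 Mybpc1 (0.992) and Smpx (0.992), to Csrp3 Lmod3 (0.992) and Mb (0.989), and to Actn3 Dusp27 (0.992) and Ppfia4 (0.987). Pdlim3 was closest to Ip6k3 (0.987) and H19 (0.986), Ldb3 to Apobec2 (0.985) and Klhl30 (0.978), Tcap to Nctc1 (0.985) and Adprhl1 (0.978), Myot to Cd36 (0.984) and Rbfox1 (0.967), and Myoz1 to Tceal5 (0.982) and Nrxn3 (0.972).

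By group mean, the members reached their highest level in different cultures. Whole cultures and fractions were deposited apart, so their levels may not be directly comparable. Ldb3 was highest in whole culture at 120 h with dox (216 CPM), and Csrp3 and Myoz2 in the same cultures without dox (217 and 192 CPM). Actn3, Tcap and Pdlim3 were highest in the myotube-enriched fraction without dox (541, 24.9 and 158 CPM), and Actn2, Myoz1 and Myot in that fraction with dox (349, 5.78 and 26.9 CPM), which rests on replicate 2: without it these means were 75.4, 1.80 and 0.837 CPM. For all of these genes but Myoz2, the libraries of the highest group overlapped those of the next. At the other end, Pdlim3 was lowest at 24 h with dox (0.187 CPM) and Ldb3 in iCdh23 with dox (3.17 CPM), below its level in growing myoblasts (15.2 CPM without dox).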

How the data were processed

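Members and gene lists were chosen with earlier results of these data known. The authors deposited estimated counts per transcript from salmon, run in the nf-core/rnaseq pipeline against mm10; a library's strand setting is not given in the sources used here. Counts were summed per gene with GENCODE vM21 names (98.8% of genes matched) and rounded. CPM used TMM factors over all 47 libraries, and TPM used annotated lengths. Each comparison was fitted on its own groups with edgeR 4.0.16 (quasi-likelihood, filterByExpr, Benjamini-Hochberg) in R 4.3.3, and differences of dox effects as interactions over 4 groups. Named genes were the 10 members, the highest and lowest of each list with the closest paralogues, and for each member the 2 genes nearest in pattern; Ttn, Neb and Ankrd1 were named after their values were seen. On simulated counts, 200 of 200 changed genes were recovered for 3 against 3 and for 2 against 3. For an interaction 198 of 200 were recovered, and false calls numbered 0, 0 and 4 in that order. Every simulated gene had the same spread between replicates, and every changed gene the same size of change. The recovery therefore does not show how many changes would be found in the more variable 120 h fractions. Alternatives were DESeq2 1.42.0, RLE factors, no low-count filter, a replicate block and leaving out each library. No library was a copy of another. Samples with the same replicate number deviated together in all 3 pairs for dox in iCdh23 (correlations 0.15 to 0.30) and iMcam (0.42 to 0.53), the fractions without dox (0.23 to 0.55) and the adhesion lines without dox (0.15 to 0.63). Replicates are labelled biological, and nothing states whether they were separate platings on separate days.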

Additional observations from a re-analysis of the deposited data

Results flagged for a closer look

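These values come from tests of whether the dox effect on a Z-disc gene differed between 2 times or 2 lines, as log2 differences with edgeR adjusted p. They passed adjusted p under 0.05 and 2-fold. The dox effect on Pdlim3 was lower at 24 h than at 0 h by −1.78 (adjusted p = 0.0131).

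Between 48 h and whole culture at 120 h, the dox effect rose for Myoz1 by 2.39, for Actn2 by 1.95, for Ldb3 by 1.39 and for Myot by 1.39 (adjusted p = 2.29e-06 to 0.00912).

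From iMcam to iCdh23 at 48 h, the dox effect differed by −1.72 for Actn3, −2.73 for Ldb3, −3.08 for Pdlim3 and −5.33 for Csrp3 (adjusted p = 0.000819 to 0.0162). From iMyoD1 to iCdh23 it differed by −2.36 for Tcap, −2.90 for Actn3, −3.56 for Pdlim3, −3.77 for Ldb3, −4.60 for Actn2, −5.51 for Myoz2 and −6.18 for Csrp3 (adjusted p = 5.9e-08 to 0.0429). From iMyoD1 to iMcam it differed by −1.17 for Actn3 and −1.04 for Ldb3 (adjusted p = 0.0405 and 0.0163). Lines and deposited tables coincide in the comparisons with iMyoD1.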

How the results depend on the processing

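Of 24 counts of members called, RLE factors left all 24 within 1.5 times, DESeq2 and the fit without a low-count filter 22 each, and the replicate block 21; no difference that passed adjusted p changed direction among the members. Of 1999 estimates under an alternative, 91 had the opposite sign, all of members that had not passed, among them Actn2 for dox in the myotube-enriched fraction (0.08, and −2.09 without dox replicate 2). For the myotube- against the myoblast-enriched fraction without dox, 1 member was called, compared with 6 without the filter, 6 by DESeq2 and 7 with the block, where these fits called 1.37%, 2.83% and 2.3% of all genes higher. For dox in the myoblast-enriched fraction, 1 was called, compared with 3 without the filter, 2 by DESeq2 and 4 with the block, which here holds only 2 pairs that share a number (Tcap −1.09, Myot −2.40 and Csrp3 −2.45 joined Pdlim3); these fits called 2.58%, 3.27% and 4.77% of all genes lower. For iCdh23 against iMcam without dox, 0 were called and 2 with the block, which called 0.825% of all genes higher. The block also added Myoz1 to the difference between iCdh23 and iMyoD1 (−2.25, adjusted p = 0.0493) and, beside the calls given above, changed no other call. The cause of these differences was not tested.

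Leaving out each library in turn moved the number of members called between 0 and 1 for dox at 0 h, 0 and 3 for dox in the myoblast-enriched fraction, 0 and 4 for the fractions without dox, 2 and 5 for iCdh23 minus iMcam and 0 and 3 for iMcam minus iMyoD1. It ran from 5 to 6 for dox in whole culture at 120 h, 4 to 6 for dox in iMcam, 4 to 6 for iCdh23 against iMcam with dox, 5 to 8 for 48 to 120 h with dox and 6 to 8 for iCdh23 minus iMyoD1. With dox the difference of Actn2 between iCdh23 and iMcam was lost without any of 3 libraries (adjusted p = 0.0549 to 0.0833) and that of Myoz2 without any of 2 (0.0573 and 0.0647). At this depth Myoz3 held 5 counts or fewer in each library, and it was tested in no comparison.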
